A study of Drosophila melanogaster with 8 samples.

Results

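Messenger RNA of the translation machinery was measured in larval ring glands of Drosophila melanogaster for 57 genes, out of 17558 genes in the deposited table. They are the genes whose deposited symbol starts with Aats-, eIF, eEF, eRF, Ef1 or EF2, and 1 further match on chromosome 4 was left out. By symbol, 28 encode initiation factors, 6 elongation factors, 1 a release factor and 22 aminoacyl-tRNA synthetases. The symbol rule uses no measured value, but the group was picked with earlier results of these data known.

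The ring gland joins the prothoracic gland, which makes the moulting hormone ecdysone, to 2 other endocrine tissues, the corpus allatum and corpus cardiacum. Glands came from wild-type larvae (genotype w[1118]) and from larvae of the Kdm5[140] null genotype (labelled kdm5[140]), which lack the histone demethylase KDM5 in every tissue. Both were untreated, of mixed sex and at the wandering stage of the last larval instar. The Kdm5[140] larvae develop slowly and were older when they reached that stage, so age and genotype cannot be told apart. Each genotype had 4 libraries, each from 80 pooled ring glands, and each library held between 17131110 and 19494692 counts on genes. Values below are CPM, counts scaled to a common library size by the TMM method, and genotypes were compared with edgeR's quasi-likelihood test, adjusted over all genes tested (FDR). A gene is called when its FDR is under 0.01.

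Protein synthesis starts when eIF2 brings the initiator tRNA to the small ribosomal subunit and the eIF4 factors bind the mRNA cap and open its leader, on a scaffold of eIF3. The elongation factor EF1alpha then delivers each charged tRNA, EF2 moves the ribosome along by one codon, and eRF1 recognizes the stop codon. Aminoacyl-tRNA synthetases charge tRNAs with their amino acids. Mitochondria translate their own few mRNAs with a separate set of factors and synthetases, encoded in the nucleus. In a gland that secretes a steroid hormone, mitochondria also house several steps of hormone synthesis.

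The targeted gene was examined first. Kdm5 is listed as lid, on chromosome arm 2L of dm6 from 5989400 to 5999501, minus strand. Its level was 172, 144, 144 and 155 CPM in wild-type replicates 1 to 4 and 200, 193, 194 and 195 CPM in Kdm5[140] replicates 1 to 4. All Kdm5[140] libraries thus lay above wild type, by 0.35 on the log2 scale (standard error, SE, 0.07, edgeR FDR = 0.00437). With single libraries left out the FDR reached 0.0188. Gene-level counts cannot tell intact from truncated transcripts, and every direction here compares libraries by their labels.

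Translation genes leaned towards lower levels in the libraries labelled Kdm5[140], mostly by small amounts. The filter on low counts kept 53 of the 57 genes. Of these, 9 (16.98%) were called lower and 0 higher, where 896 of all 9317 genes tested (9.62%) were lower and 737 (7.91%) higher. That excess was not kept in every fit with a single library left out. Over all genes, 537 to 957 were called lower in those fits. Without wild-type replicate 2, wild-type replicate 3, Kdm5[140] replicate 2 or Kdm5[140] replicate 4, 2 of the 53 (3.77%) were called lower, beside 5.82, 5.63, 5.96 and 6.49% of all genes, and without Kdm5[140] replicate 1 it was 3 (5.66%) beside 5.86%. The share lay above that of all genes without wild-type replicate 1 (11 genes, 20.8%, beside 957 of 9526 genes), wild-type replicate 4 (5 genes, 9.43%, beside 6.79%) or Kdm5[140] replicate 3 (14 genes, 26.4%, beside 9.42%). At an unadjusted p under 0.05, 30 of the 53 were lower and 0 higher, where 22.1% of all genes were lower and 20.4% higher, and DESeq2 and limma also called 0 higher. The log2 fold change was below 0 for 46 of the 53 (86.8%), against 47.5% of all genes tested, and for 46 or 47 of them with any library left out. Its median was −0.19 over the 53 and 0.02 over all genes, and it ran from −0.87 for Aats-met to 0.22 for Ef1alpha100E. For 25 of the 53 genes (47.2%), every Kdm5[140] value lay under every wild-type value, against 17.6% of all genes tested, and 0 genes were separated the other way, against 15.6%.

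**Figure D1:**
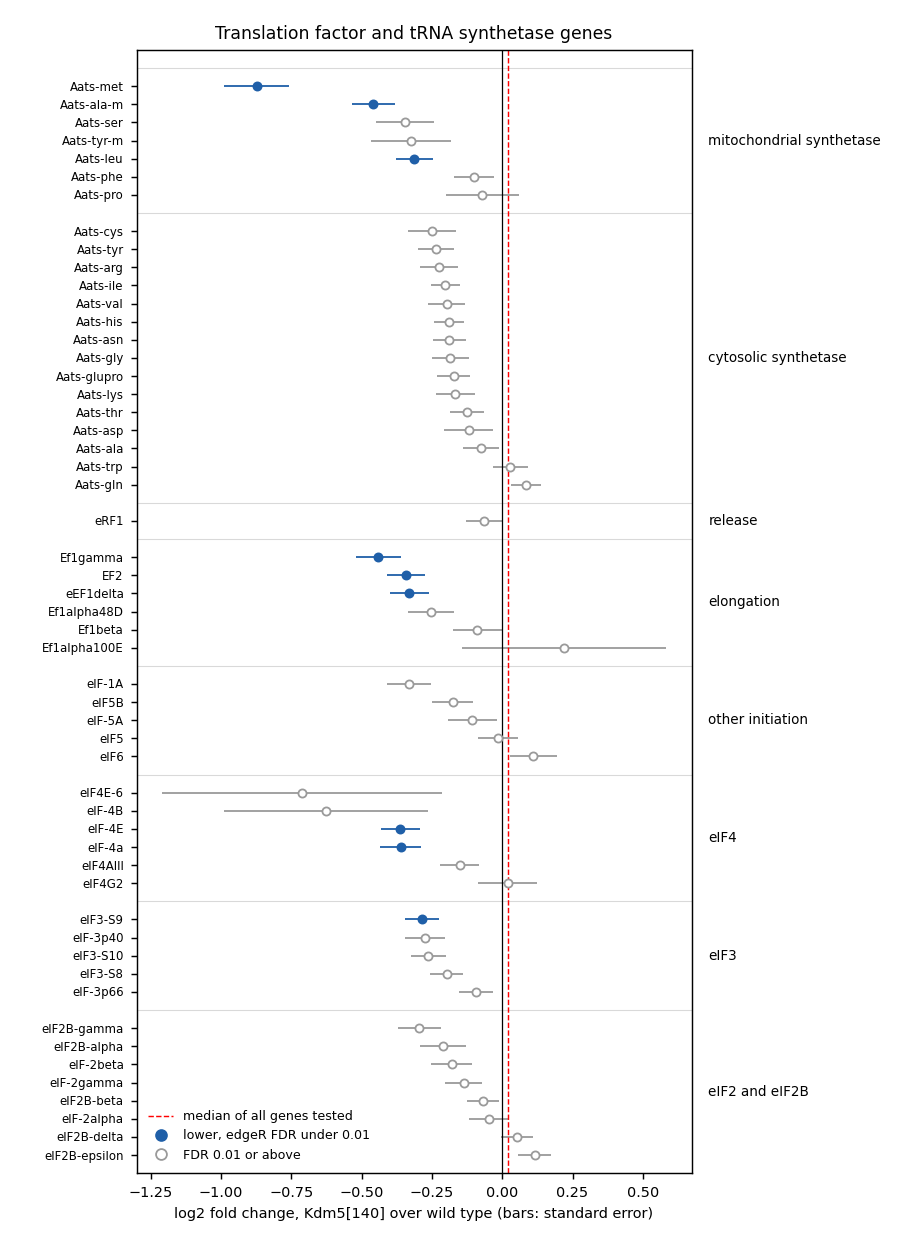
Log2 fold change of each of the 53 translation factor and synthetase genes tested, Kdm5[140] over wild type, grouped by role; points are edgeR estimates and bars their standard errors. Filled points are the 9 genes called lower; most points, 46 of 53, lie left of 0, while the dashed line marks the median of all genes tested, 0.02.

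The scaling of the libraries touches these counts. TMM factors were 0.9357, 0.9784, 0.9629 and 0.9908 in wild type and 1.056, 1.048, 0.967 and 1.069 in Kdm5[140]. Scaled to total counts alone, an alternative added after those factors were seen, 617 genes of the whole table were called lower and 1091 higher, and the median of all genes rose to 0.12. Of the translation genes, 5 were then called lower, beside 6.62% of all genes, and 0 higher, and their median was −0.09. The log2 fold change stayed below 0 for 38 of the 53 (71.7%), against 36.9% of all genes. Before any scaling, the 57 genes took 3.45, 3.51, 3.56 and 3.45% of all counts in wild-type replicates 1 to 4 and 3.02, 3.19, 3.17 and 3.08% in the Kdm5[140] replicates. The ranges of the genotypes did not overlap.

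Ring glands were not sorted into cell types. In such bulk samples, fewer cells of a type and less RNA per cell cannot be told apart. Of 6 prothoracic gland markers, spok was lower and dib and sro were higher in Kdm5[140]. Their summed level ran from 41010 to 43950 CPM in wild type and from 30106 to 39102 CPM in Kdm5[140], none at 0. Of 4 neuronal markers, elav was higher, and their sum ran from 124 to 179 CPM in wild type and from 159 to 223 CPM in Kdm5[140]. No marker of the corpus allatum, corpus cardiacum, glia, fat body, haemocytes, trachea or salivary gland was called. The 5 fat body markers summed to between 635 and 2055 CPM in wild type and between 993 and 3849 CPM in Kdm5[140], the 3 salivary gland markers to between 346 and 791 CPM and between 146 and 1767 CPM. The part of these shifts in the translation genes was not tested.

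Lengths of transcripts were taken into account before levels were compared between genes. Per kilobase of gene length, Ef1alpha48D was the highest of the 57 genes in wild type, at 5857 ± 328 CPM per kilobase (SD, n = 4). EF2 followed at 1916 ± 24.3 and eIF-5A at 1861 ± 137 CPM per kilobase, which differed by less than the spread of eIF-5A. Ef1gamma stood at 1379 ± 47.4, eIF-4a at 1265 ± 6.004 and Ef1beta at 769 ± 53.1 CPM per kilobase. The next gene, eIF3-S9, had 304 ± 1.31 CPM per kilobase. The highest gene with an Aats- symbol, Aats-thr, had 92.1 ± 2.27 CPM per kilobase, and among its mitochondrial members Aats-phe was highest at 26.0 ± 1.14. Aats-met was the lowest with that symbol at 3.90 ± 0.383 CPM per kilobase. Elongation factors other than Ef1alpha100E thus stood near the top of the order, with a few genes that are initiation factors by symbol. Ef1alpha100E had 33.6 ± 14.7 CPM per kilobase, and mitochondrial synthetases lay near the lower end of the order. Ef1alpha48D alone took between 38.5 and 41.2% of the CPM of all 57 genes in every library. The sum of the other 56 genes ran from 21418 to 22139 CPM in wild type and from 17293 to 19456 CPM in Kdm5[140].

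**Figure D2:**
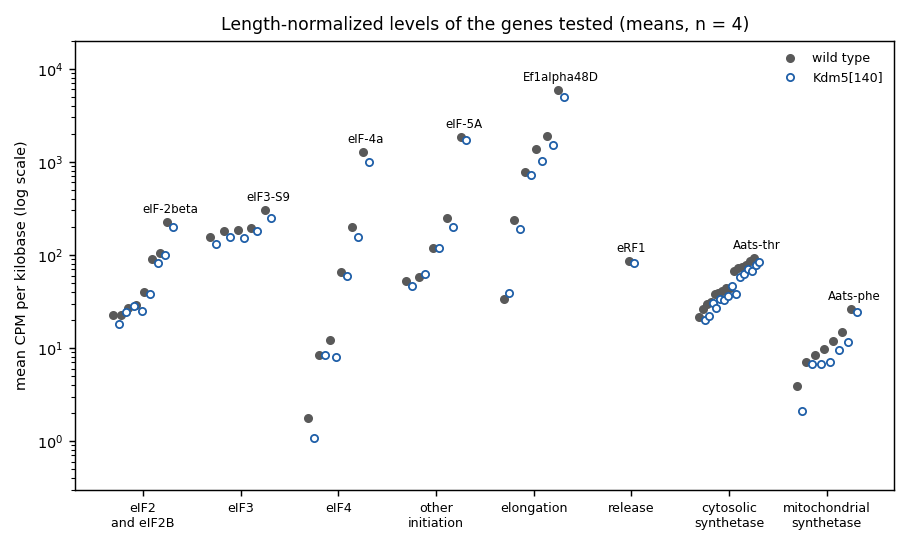
Mean CPM per kilobase of gene length (log axis) of the 53 genes tested, by role, in wild type (filled) and Kdm5[140] (open), n = 4 libraries each. The topmost gene of each role is named; Ef1alpha48D, at 5857 CPM per kilobase in wild type, is highest and eIF4E-6, at 1.79, lowest.

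Initiation began the survey by role. The initiation factors fell into 8 genes of eIF2 and its exchange factor eIF2B, 5 of eIF3, 10 of eIF4 and 5 others. None of the 8 genes of eIF2 and eIF2B was called by edgeR or limma, with log2 fold changes from −0.29 to 0.11. At an unadjusted p under 0.05, 3 were lower, beside 22.1% of all genes. DESeq2 called 1 lower, beside 11.4% of the genes it tested. eIF2 carries the initiator tRNA in a complex with GTP, and eIF2B reloads it. The most abundant subunit per kilobase, eIF-2beta, had 241, 257, 271 and 250.2 CPM in wild type and 226, 239, 236 and 200 CPM in Kdm5[140]. Its groups did not overlap, but the log2 fold change of −0.18 (SE 0.07) was not called (edgeR FDR = 0.089). eIF-2alpha, the subunit whose phosphorylation slows initiation, had 152, 152, 169 and 155 CPM in wild type and 141, 153, 168 and 147 CPM in Kdm5[140], almost fully overlapping. eIF-2gamma, which binds GTP, had 183, 195, 209 and 212 CPM in wild type and 172, 186, 190.3 and 178 CPM in Kdm5[140]. The log2 fold changes of eIF-2alpha and eIF-2gamma were −0.05 and −0.14 (edgeR FDR = 0.642 and 0.147). An exon of eIF-2alpha overlaps one of rngo on the opposite strand over 12.6% of its exon bases, and eIF-2gamma shares exons with Su(var)3-9, so both values are uncertain. Among the 5 eIF2B genes, eIF2B-gamma was lowest at −0.29 (edgeR FDR = 0.0151) and eIF2B-epsilon highest at 0.11 (edgeR FDR = 0.164).

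All 5 eIF3 genes with an eIF symbol had log2 fold changes below 0, from −0.29 to −0.09. In 4 of them (80.0%) every Kdm5[140] value lay under every wild-type value, against 17.6% of all genes tested. eIF3 is the largest initiation factor and holds the small subunit and the mRNA together. eIF3-S9, its subunit b, lies on 2R from 17536213 to 17539142, plus strand. Its level was 814, 818, 815 and 809.8 CPM in wild type and 635, 679, 708 and 649 CPM in Kdm5[140]. The mean fell from 814 ± 3.52 to 668 ± 32.6 CPM (SD over 4 libraries each), a log2 fold change of −0.29 (SE 0.06, edgeR FDR = 0.00597). It was the only 1 of these 5 called, where 9.62% of all genes were called lower. The call was kept in 2 of 8 fits with single libraries left out, those without wild-type replicate 1 or Kdm5[140] replicate 3, and the FDR reached 0.023 in the others. Scaled to total counts the value was −0.19 (edgeR FDR = 0.0151), and without a filter on low counts the FDR was 0.0127 in edgeR. eIF3-S10, subunit a, lay just outside the threshold at −0.26 (edgeR FDR = 0.0111), eIF-3p40, subunit h, at −0.28 (edgeR FDR = 0.0147). An exon of eIF-3p40 overlaps senju on the opposite strand over 16.8% of its exon bases. Subunits deposited under other symbols went both ways, from −0.16 for Int6 (subunit e) to 0.19 for CG10306 (subunit k) and 0.21 for Tango7 (subunit m). In CG10306 and Tango7 every Kdm5[140] value lay above every wild-type value, but neither was called (edgeR FDR = 0.0751 and 0.0557).

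Of the 6 eIF4 genes tested, 2 were called lower, where 9.62% of all genes were. They are the helicase and the main cap-binding protein. eIF-4a encodes the helicase that unwinds mRNA leaders and lies on 2L from 5981764 to 5985909, plus strand. It had 3147, 3133, 3149 and 3117 CPM in wild type and 2255, 2483, 2689 and 2337 CPM in Kdm5[140], well apart. The mean fell from 3136 ± 14.9 to 2441 ± 190 CPM (SD over 4 libraries each), a log2 fold change of −0.36 (SE 0.07, edgeR FDR = 0.00463). eIF-4E, the cap-binding protein, lies on 3L from 9399618 to 9402460, minus strand. In its case the values were 451, 433, 462 and 428 CPM in wild type and 329.5, 342, 383 and 325 CPM in Kdm5[140]. The mean fell from 443 ± 15.7 to 345 ± 26.3 CPM (SD over 4 libraries each), also −0.36 (SE 0.07, edgeR FDR = 0.00374). Both were called when counts were scaled to their totals, at −0.27 each. Leaving out libraries singly, eIF-4a was called in 2 of 8 fits (without wild-type replicate 1 or Kdm5[140] replicate 3) and eIF-4E in 3 (also without wild-type replicate 4). The FDR of the remaining fits reached 0.018 and 0.015, with log2 fold changes from −0.41 to −0.33 for eIF-4a and from −0.42 to −0.33 for eIF-4E.

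Relatives of these 2 genes did not pass the test. eIF4AIII, a helicase of the same family that sits in the exon junction complex, had 88.3, 100.2, 104 and 96.5 CPM in wild type and 86.7, 82.7, 94.3 and 86.3 CPM in Kdm5[140], with overlap (−0.15, SE 0.07, edgeR FDR = 0.125). Of the other genes with an eIF4E symbol, only eIF4E-6 passed the filter, with 23, 12, 39 and 12 counts in wild type and 16, 16, 6 and 18 in Kdm5[140]. Its log2 fold change of −0.71 had a standard error of 0.50 (edgeR FDR = 0.306). eIF4E-3, which works in the testis, had 4, 1, 0 and 0 counts in wild type and 0, 0, 1 and 3 in Kdm5[140]. For eIF4E-4 the counts were 1, 0, 0 and 0 against 4, 0, 0 and 8, and for eIF4E-5 they were 0, 6, 0 and 1 against 0, 4, 0 and 12. eIF4E-7 had 1 count in the whole series. Of the genes with an eIF-4E or eIF4E symbol, eIF-4E held nearly all counts. 4EHP, a cap-binding relative deposited under another symbol, had 56.4, 57.0, 59.3 and 58.8 CPM in wild type and 60.3, 69.4, 70.5 and 56.2 CPM in Kdm5[140], with overlap (0.15, SE 0.08, edgeR FDR = 0.199). Some exon bases of 4EHP are shared with Syx1A on the same strand. eIF-4B, a cofactor of the helicase, had 16.7, 45.6, 17.5 and 14.6 CPM in wild type and 15.6, 16.2, 15.4 and 13.9 CPM in Kdm5[140]. Its log2 fold change of −0.63 (SE 0.36, edgeR FDR = 0.228) became −0.09 without wild-type replicate 2, the library at 45.6 CPM.

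Among the 5 other initiation factors, eIF-1A, which helps the small subunit scan for the start codon, was closest to a call. It had 454, 423, 458 and 396 CPM in wild type and 342, 324, 385 and 325 CPM in Kdm5[140], without overlap, with a log2 fold change of −0.33 (SE 0.08, edgeR FDR = 0.0109). eIF-5A, named eEF5 in the current annotation because it promotes peptide bond formation, had 1517, 1487, 1636 and 1367 CPM in wild type and 1325, 1405, 1568 and 1283 CPM in Kdm5[140]. These ranges overlapped (−0.11, SE 0.09, edgeR FDR = 0.377). eIF6, which keeps the large subunit from joining too early, had the highest value of this group at 0.11 (edgeR FDR = 0.338).

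The elongation factors held 3 genes called lower among 6, where 9.62% of all genes were called lower. EF1alpha in its GTP form carries charged tRNA to the ribosome, the beta, gamma and delta subunits belong to the complex that exchanges its GDP for GTP, and EF2 drives translocation. Ef1gamma lies on 3R from 29220172 to 29222109, plus strand. Its level was 2251, 2339, 2444 and 2315 CPM in wild type and 1567, 1712, 1940.5 and 1669 CPM in Kdm5[140]. The mean fell from 2337 ± 80.3 to 1722 ± 158 CPM (SD over 4 libraries each), a log2 fold change of −0.44 (SE 0.08, edgeR FDR = 0.00259). This was the largest fall of a cytosolic translation factor among the 57 genes that was called. EF2, on 2L from 21677913 to 21682164, minus strand, had 5959, 5842, 5832 and 5784 CPM in wild type and 4338, 4707, 4970 and 4460 CPM in Kdm5[140]. Its log2 fold change was −0.34 (SE 0.07, edgeR FDR = 0.00474), for means of 5854 ± 74.3 and 4619 ± 280 CPM (SD over 4 libraries each). eEF1delta, on 2L from 10232507 to 10234450, plus strand, had 214, 217, 247 and 208 CPM in wild type and 181, 173, 183 and 168 CPM in Kdm5[140]. The fall was −0.33 on the log2 scale (SE 0.07, edgeR FDR = 0.00544). In each of these 3 genes the wild-type libraries all lay above the Kdm5[140] libraries.

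The elongation calls were not kept in every fit with a single library left out, although the fold changes moved little. Ef1gamma stayed between −0.50 and −0.40 with libraries left out, EF2 between −0.38 and −0.31 and eEF1delta between −0.35 and −0.28. Ef1gamma was called in 4 of the 8 fits (without wild-type replicate 1 or 4 or Kdm5[140] replicate 1 or 3), eEF1delta in 3 and EF2 in 2. The highest FDR of these fits was 0.0116 for Ef1gamma, 0.0196 for EF2 and 0.0211 for eEF1delta. Without wild-type replicate 1 or Kdm5[140] replicate 3, all 3 were called. Scaled to total counts, Ef1gamma (−0.35) and EF2 (−0.25) were called, and eEF1delta had an FDR of 0.0213 in edgeR. Without a filter on low counts EF2 was not called (edgeR FDR = 0.012), nor was eEF1delta with the gene length offset (edgeR FDR = 0.0126).

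The remaining elongation genes were not called. Ef1alpha48D, the main EF1alpha gene, had 15230, 14230, 14876 and 13392 CPM in wild type and 11309, 12257, 13325 and 11547 CPM in Kdm5[140]. Every Kdm5[140] value was under every wild-type value, by as little as 13325 against 13392 CPM, with a log2 fold change of −0.25 (SE 0.08, edgeR FDR = 0.0394). Ef1alpha100E, a second gene for the factor, had 51.3, 102, 65.0 and 138 CPM in wild type and 133, 126, 64.2 and 91.6 CPM in Kdm5[140]. The spread within each genotype exceeded the difference between them, with a log2 fold change of 0.22 (SE 0.36, edgeR FDR = 0.681). In the same libraries the summed neuronal markers had 135, 163, 124 and 179 CPM in wild type and 223, 223, 159 and 217 CPM in Kdm5[140], and their part in this spread was not tested. Ef1beta overlapped between genotypes at −0.09 (edgeR FDR = 0.474). The release factor eRF1 had 280, 266, 271 and 247 CPM in wild type and 258, 255, 271 and 235 CPM in Kdm5[140], also overlapping (−0.06, SE 0.07, edgeR FDR = 0.494). Its exons include some shared with CG5618.

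**Figure D3:**
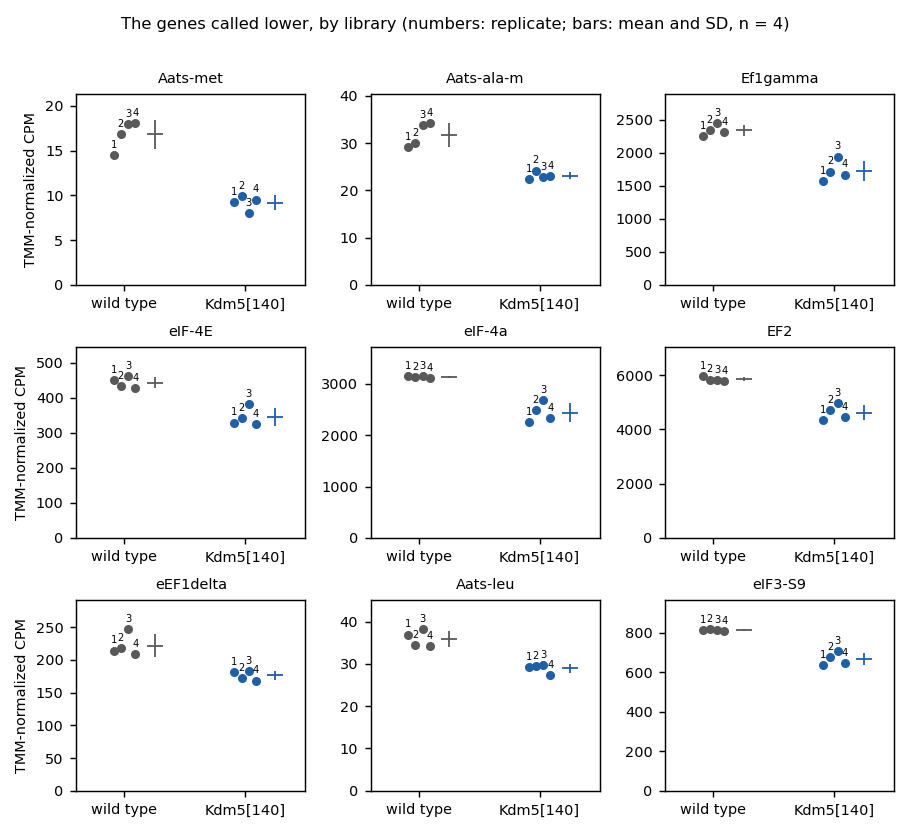
TMM-normalized CPM of the 9 genes called lower in each library; numbers beside points are replicate numbers, and crosses give the mean and SD of 4 libraries. In all 9 panels the wild-type points lie above the Kdm5[140] points, and in the cytosolic factors Kdm5[140] replicate 3 is the highest of its genotype.

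Kdm5[140] replicate 3 was the library of its label that most often had the highest level. It held the highest Kdm5[140] value in 31 of the 53 genes, where it did so in 36.7% of all genes tested. In it the prothoracic gland markers summed to 39102 CPM, against 30106 to 31924 CPM in the other libraries of that label. Its salivary gland markers summed to 1767 CPM, against 146 to 585 CPM. Without this library 14 of the translation genes were called lower, and 895 of all genes were lower and 629 higher. The 5 gained were Aats-arg, Ef1alpha48D, eIF-1A, eIF-3p40 and eIF2B-gamma, and none of the 9 was lost.

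The synthetases were sorted by compartment. From current RefSeq symbols, 15 of the 22 serve the cytosol and 7 the mitochondria. Several deposited symbols do not show this: Aats-leu, Aats-ser, Aats-met, Aats-pro and Aats-phe now carry the mitochondrial suffix. Of the 7 mitochondrial genes, 3 were called lower, where 9.62% of all genes tested were. All 7 had log2 fold changes below 0, with a median of −0.32. Of the 15 cytosolic genes, 0 were called by edgeR or limma, 13 had values below 0 and the median was −0.18. At an unadjusted p under 0.05, 10 of the 15 were lower, beside 22.1% of all genes. With the gene length offset 5 were called lower, beside 11.0% of all genes. Cytosolic values ran narrowly from −0.25 for Aats-cys to 0.09 for Aats-gln. Without overlap on the lower side were 8 cytosolic genes (53.3%) and 4 mitochondrial genes (57.1%), against 17.6% of all genes tested. At an FDR under 0.05, where 16.5% of all genes tested were lower, 7 of the cytosolic and 4 of the mitochondrial genes were lower. The difference between the compartments was not tested. With DESeq2, 3 of the cytosolic genes were called lower at an FDR under 0.01 (Aats-his, Aats-ile and Aats-tyr), where it called 11.4% of the genes it tested lower.

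Aats-met, the mitochondrial methionyl-tRNA synthetase, showed the largest change of the 57 genes. It lies on 3R from 14249043 to 14259991, minus strand. Its level was 14.5, 16.8, 17.9 and 18.0 CPM in wild type and 9.20, 9.93, 8.04 and 9.51 CPM in Kdm5[140], far from overlapping. The mean fell from 16.8 ± 1.65 to 9.17 ± 0.813 CPM (SD over 4 libraries each), 1.83-fold lower, a log2 fold change of −0.87 (SE 0.12, edgeR FDR = 0.000476). Aats-ala-m, for alanine, lies on 3L from 5146098 to 5149852, plus strand. It had 29.1, 30.0, 33.8 and 34.2 CPM in wild type and 22.4, 24.2, 22.8 and 23.0 CPM in Kdm5[140], a log2 fold change of −0.46 (SE 0.08, edgeR FDR = 0.00186). Both genes were called in all 8 fits with single libraries left out, the only members of the 57 to be so. Scaled to total counts, Aats-met was still called at −0.77, and Aats-ala-m had −0.36 (edgeR FDR = 0.0118).

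Aats-leu, the mitochondrial leucyl-tRNA synthetase on 3L from 4825853 to 4829038, plus strand, was the third. It had 36.9, 34.4, 38.2 and 34.3 CPM in wild type and 29.2, 29.4, 29.7 and 27.4 CPM in Kdm5[140], so the groups did not overlap. Its log2 fold change was −0.31 (SE 0.07, edgeR FDR = 0.00597), and it was called in 1 of 8 fits, without Kdm5[140] replicate 3, with an FDR up to 0.0218 in the rest. Scaled to total counts it had −0.21 (edgeR FDR = 0.024), and without a filter on low counts the FDR was 0.0114 in edgeR. Aats-ser at −0.35 (edgeR FDR = 0.0296) and Aats-tyr-m at −0.32 (edgeR FDR = 0.111) were near it in size but not called. Aats-phe and Aats-pro were at −0.10 and −0.07. Aats-ser overlaps Nagk on the opposite strand over 13.9% of its exon bases.

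Aats-thr, the highest per kilobase of the genes with an Aats- symbol, had 258, 266, 271 and 272 CPM in wild type and 249, 254, 251 and 225 CPM in Kdm5[140]. Its groups did not overlap, with a log2 fold change of −0.12 (SE 0.06, edgeR FDR = 0.148). Among cytosolic genes Aats-ile came closest to a call at −0.20 (SE 0.05, edgeR FDR = 0.0138). Aats-gln at 0.09 and Aats-trp at 0.03 were the 2 above 0. Aats-asp overlaps other genes on the opposite strand over 69.5% of its exon bases, and Aats-his shares exons with Bx. Whether reads were counted by strand is not given in the sources used here. Over all roles, 19 of the 57 genes have such an overlap on the opposite strand. The other 38, of which 34 were tested, held 8 of the 9 calls, and the ninth, Aats-ala-m, overlaps Gen over 0.124% of its exon bases.

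The full set of synthetases was also examined, including 13 genes deposited under other symbols. Of 15 mitochondrial synthetases in all, 6 were called lower, where 9.62% of all genes were, and 14 had log2 fold changes below 0, with a median of −0.31. Of 20 cytosolic ones, 2 were called lower, with a median of −0.18. CG5660, the mitochondrial valyl-tRNA synthetase, had 13.9, 17.7, 14.8 and 16.0 CPM in wild type and 6.39, 8.44, 6.83 and 8.51 CPM in Kdm5[140]. It fell by 1.05 on the log2 scale (SE 0.14, edgeR FDR = 0.000483), 2.06-fold. CG4573, for mitochondrial glutamate, fell by 1.11 (SE 0.23, edgeR FDR = 0.00543) and CG8257, for mitochondrial cysteine, by 0.43 (SE 0.09, edgeR FDR = 0.00677). CG5660 was called with any library left out, CG4573 in 2 and CG8257 in 1 of the 8 fits, with an FDR up to 0.0207 and 0.023. CG4573 was not called when scaled to total counts (edgeR FDR = 0.0113). It had 38 to 78 counts in the Kdm5[140] libraries, and the filter of 5 CPM left it out. CG8257 overlaps another gene on the opposite strand over 14.3% of its exon bases. The exception in direction was CG5414, for mitochondrial isoleucine, at 0.41 (SE 0.11, edgeR FDR = 0.0166), not called. It was called higher, at 0.51, when scaled to total counts (edgeR FDR = 0.0055) and, at 0.45, with the filter of 5 CPM (edgeR FDR = 0.00865).

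Both cytosolic calls were among genes with other symbols. CG33123, the cytosolic leucyl-tRNA synthetase, had 147, 151, 145 and 155 CPM in wild type and 120, 122, 105 and 104 CPM in Kdm5[140], a log2 fold change of −0.41 (SE 0.07, edgeR FDR = 0.00205). CG5706 encodes the beta subunit of the cytosolic phenylalanyl-tRNA synthetase. It had 87.4, 84.5, 87.8 and 78.2 CPM against 64.5, 60.8, 69.5 and 64.0 CPM, a value of −0.38 (SE 0.06, edgeR FDR = 0.00198). Both were called with any library left out. The alpha subunit of the same enzyme, CG2263, was at 0.04 (edgeR FDR = 0.649). CG33123 was not called under scaling to total counts (−0.31, edgeR FDR = 0.0195).

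**Figure D4:**
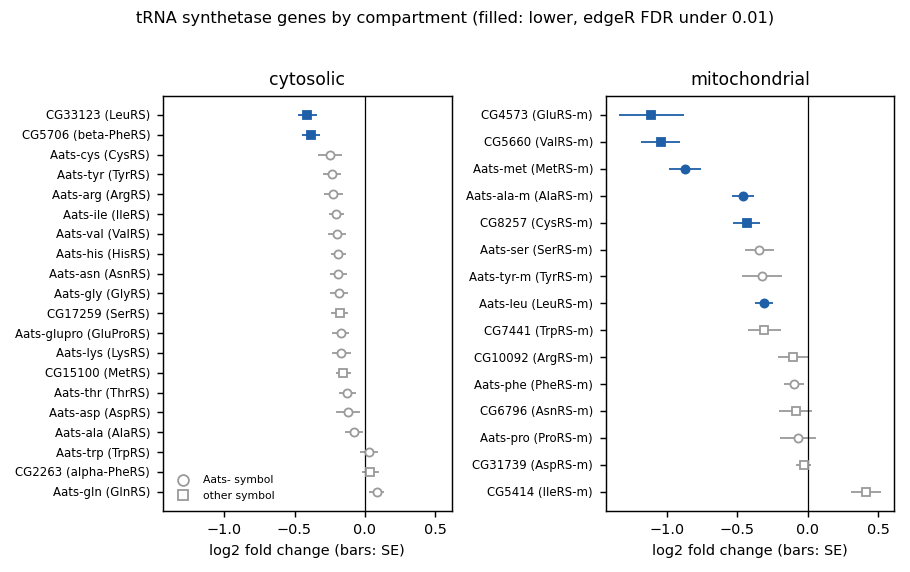
Log2 fold changes (Kdm5[140] over wild type, with standard errors) of 20 cytosolic and 15 mitochondrial tRNA synthetase genes, with the current symbol in brackets; circles are genes deposited with an Aats- symbol, squares other genes, filled where called lower. Calls number 2 of 20 on the cytosolic side and 6 of 15 on the mitochondrial side, where values spread from −1.11 to 0.41.

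Mitochondrial translation factors were set beside the mitochondrial synthetases. Of 9 tested, 3 (33.3%) were called lower and 0 higher, with a median of −0.35, where 9.62% of all genes were lower and their median was 0.02. CG12413 encodes the mitochondrial initiation factor mIF2. It had 10.1, 12.1, 12.8 and 11.8 CPM in wild type and 6.90, 6.95, 6.34 and 5.03 CPM in Kdm5[140], without overlap. It fell by 0.89 on the log2 scale (SE 0.15, edgeR FDR = 0.00184). CG4447, the ribosome recycling factor mRRF1, fell by 0.83 (SE 0.17, edgeR FDR = 0.00543) and ico, the elongation factor mEFG1, by 0.50 (SE 0.09, edgeR FDR = 0.00211). CG12413 and ico were called with any library left out and CG4447 in 3 of the 8 fits, with an FDR up to 0.0205. Of the exon bases of ico, 17.1% overlap another gene on the opposite strand. EfTuM, which delivers charged tRNA in mitochondria, lay just outside at −0.35 (edgeR FDR = 0.0108).

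Cytosolic factors deposited under other symbols had mixed directions. Of 19 such genes, 15 were tested and 0 were called by edgeR, or by limma. At an unadjusted p under 0.05, 1 was lower and 4 were higher, beside 22.1% and 20.4% of all genes. DESeq2 called 2 lower and 2 higher, beside 1281 lower and 1160 higher of all 11206 genes it tested. Of its lower calls, CG17737 was among the 15 (FDR = 0.00675 in DESeq2). The other was a gene of the 19 that the edgeR filter had left out for low counts. The gene length offset gave 3 higher and 0 lower, beside 854 higher and 1021 lower of all 9317 genes. Under scaling to total counts, 4 were called higher and 0 lower, beside 1091 higher and 617 lower of all 9317 genes. The 4 were the eIF3 subunit genes CG10306 and Tango7, with EfSec and Elf. Log2 fold changes were below 0 for 7 and above 0 for 8 of the 15, with a median of 0.01. CG17737, the start-codon factor eIF1, had −0.28 (edgeR FDR = 0.0248). Elf, the release factor eRF3, had 0.27 (edgeR FDR = 0.0316), and EfSec, the elongation factor for selenocysteine, 0.66 (edgeR FDR = 0.0138). Whether these genes differ from the 57 was not tested.

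Genes that control translation were examined last. Of 13, 12 were tested and 2 (16.7%) were called lower, beside 9.62% of all genes, with a median of 0.0024 and 6 values on each side of 0. crc encodes ATF4, a transcription factor translated when eIF2alpha is phosphorylated. It lies on 2L from 21310866 to 21319527, plus strand, and shares exon bases with CG46314 on the same strand. It had 1505, 1814, 1732 and 1946 CPM in wild type and 892, 957, 963 and 826 CPM in Kdm5[140]. The mean fell from 1749 ± 185 to 910 ± 64.0 CPM (SD over 4 libraries each), a log2 fold change of −0.94 (SE 0.09, edgeR FDR = 8.46e-05), called with any library left out. pelo, which rescues stalled ribosomes, fell by 0.34 (SE 0.07, edgeR FDR = 0.00404), with an FDR up to 0.0154 when libraries were left out and a call in 2 of the 8 fits. With total counts as the scale pelo had an FDR of 0.0112 in edgeR, and HBS1, its partner, was called higher at 0.32 (edgeR FDR = 0.00548). The eIF2alpha kinases Gcn2 and PEK were not called (edgeR FDR = 0.624 and 0.42). Thor, the 4E-BP that binds eIF-4E and blocks its work, had 3019, 2137, 2030 and 1832 CPM in wild type and 2619, 2478, 3146 and 2386 CPM in Kdm5[140]. Its groups overlapped through wild-type replicate 1 alone, and it was not called (0.24, SE 0.16, edgeR FDR = 0.281). With single libraries left out, Thor ran from 0.14 to 0.41 and was never called (lowest edgeR FDR = 0.0175). RpS6, a ribosomal protein phosphorylated when growth signalling is active, was at −0.13 (edgeR FDR = 0.274).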

How the data were processed

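The study sequenced polyA-selected RNA of dissected ring glands from 4 wild-type and 4 Kdm5[140] pools. Per the labels, reads were aligned to dm6 with HISAT2 2.0.5, StringTie 1.3.3b was run, and featureCounts 1.5.0-p3 gave the counts per gene that the authors deposited without normalization. The authors also deposited FPKM values, a mean signal per genotype (normalized counts), log2 fold changes and p-values with adjusted p-values from DESeq2 1.20.0, and none of these was used. Strand settings are not given in the sources used here.

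Genotypes were compared in R 4.3.3 by the quasi-likelihood test of edgeR 4.0.16 (robust fit, TMM scaling, filterByExpr), and p-values were adjusted by the Benjamini-Hochberg method over all genes tested. Standard errors came from the F statistic. Alternatives were DESeq2 1.42.0, limma 3.58.1 (voom), other scalings and filters, a gene length offset, protein-coding genes, a replicate block, an FDR under 0.05, and each library left out. Totals ran from 17131110 to 19494692 counts per library, and no pair of replicates differed by as little as sampling noise (chi-square per degree of freedom 11.19 or more). Nothing says more of the pools than that they are separate, so p-values measure the spread between pools. Levels per kilobase used the deposited gene length.

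Named with values in each library were, by rule, called members, the highest member per role, the eIF4E, EF1alpha and eIF4A genes, eIF2 subunits, eRF1 and lid. Up to 5 called genes per other list were also named, but CG4573, CG8257, CG4447, ico and pelo without values in each library. eIF-1A, eIF-4B, Aats-ile and other genes outside the threshold were named after their values were seen. Members and lists were chosen with earlier results of these data known. RefSeq gave current symbols: 54 of the 57 genes matched by FlyBase ID and 3 by synonym. Of 17252 table genes matched to the annotation, 98.4% had the same coordinates. Promoter motifs and sequences were not analysed here.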

Additional observations from a re-analysis of the deposited data

Results flagged for a closer look

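Among 114 groups of 4 libraries of the 57 genes, 6 held a library far from the other 3, with a gap to the nearest that passed Dixon's critical share of the range, where chance gives about 1 in 20. eIF-2alpha had 169 CPM in wild-type replicate 3 and 152 to 155 CPM in the others. eIF-4B had 45.6 CPM in wild-type replicate 2 and 14.6 to 17.5 CPM in the others. eIF4E-6 had 0.363 CPM in Kdm5[140] replicate 3 and 0.818 to 0.896 CPM in the others. The remaining 3 rest on few counts: eIF4E-4 with 0.0549 CPM (1 count) in wild-type replicate 1, eIF4E-5 with 0.357 CPM (6 counts) in wild-type replicate 2 and eIF4E-7 with 0.0498 CPM (1 count) in Kdm5[140] replicate 4.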

How the results depend on the processing

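Of the translation genes, 0 were called higher under every alternative run. The number called lower, 9, became 18 with DESeq2 (11.4% of all genes) and 17 with the gene length offset (11.0% of all genes). It was 5 with scaling to total counts (6.62%) and 6 without a filter on low counts (5.85%). At an FDR under 0.05 it was 23 (16.5% of all genes), and with single libraries left out it was 2 to 14. The 9 genes were all among those of DESeq2, and 8 among those of the length offset, where eEF1delta was lost (−0.22, FDR = 0.0126 in edgeR). All 5 calls under total counts were among the 9, as were the 6 without a filter, where EF2 (FDR = 0.012), eIF3-S9 (FDR = 0.0127) and Aats-leu (FDR = 0.0114, all in edgeR) were lost. Without wild-type replicates 1 to 4 in turn the number was 11, 2, 2 and 5, and without Kdm5[140] replicates 1 to 4 it was 3, 2, 14 and 2. Over all genes, 896 lower became 1536 at an FDR under 0.05 and 537 to 957 with single libraries left out, and 737 higher became 1160 with DESeq2, 1339 at an FDR under 0.05 and 423 to 870. The cause was not tested.

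Same-numbered libraries of the genotypes deviated together with correlations of 0.1, 0.109, 0.216 and −0.118, and not every library correlated best with its own number. No clear pairing of pools by number was thus seen, and whether same-numbered pools share a batch was not tested. With the replicate block, 11 translation genes and 906 genes in all (9.72%) were lower and 711 higher. In edgeR it added eIF-1A (FDR = 0.00385) and eIF3-S10 (FDR = 0.0098) to the 9 lower. In the other lists it added CG17737 (FDR = 0.00439), EfTuM (FDR = 0.00439) and Fmr1 (FDR = 0.00948) as lower and Elf (FDR = 0.00635) and CG5414 (FDR = 0.00872) as higher, and ended the call of CG8257 (FDR = 0.0139).

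Of the log2 fold changes of single genes, 497 of 539 under other settings and 373 of 432 with libraries left out kept their direction and side of the threshold. Signs turned with total counts for eIF-2alpha (0.047), eIF2B-beta (0.027), eIF-3p66 (0.002), eIF5 (0.080), Ef1beta (0.005), eRF1 (0.033), Aats-ala (0.021) and Aats-pro (0.025). The length offset turned eIF4G2 (−0.065), eIF-5A (0.027) and Ef1beta (0.010), and the filter of 5 CPM turned eIF5 (0.021). With libraries left out, eIF4G2 ran from −0.037 to 0.098, eIF5 from −0.062 to 0.013 and Aats-trp from −0.005 to 0.06. None of these was called. Below about 3 counts per library, as for eIF4E-3 and eIF4E-7, no difference was detectable at this depth.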
